A study of Mus musculus with 4 samples.

Results

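Genes that macrophages and other cells switch on in response to interferon gamma were followed in single cells of the mouse joint. They were the chemokine genes Cxcl9, Cxcl10 and Ccl5, the guanylate-binding protein gene Gbp2 and the serpin gene Serpina3g. The 5 genes were chosen by their levels and joint detection in these same files, chiefly at day 0, so both are given here as a description. They are 5 of 13036 genes listed in at least 1 file. All 5 were listed at day 0, 3 at days 1 and 2, and 4 at day 5. Every listed gene was present in 5 or more barcodes of its file. Cxcl9 at days 1, 2 and 5 and Serpina3g at days 1 and 2 were not listed, so they have no value there, which differs from a count of 0.

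The cells were CD45+CD11b+Ly6G- mononuclear cells, a gate for myeloid cells that leaves out neutrophils, sorted from synovial tissue of the hind paws. All groups came from Cx3cr1creER:tdTomato mice that had received tamoxifen, 4 weeks before arthritogenic K/BxN serum in the groups injected with it; Cre driven by Cx3cr1 then marks cells that expressed Cx3cr1 at that time, and their descendants. Day 0 was the steady state, and days 1, 2 and 5 followed the transfer of K/BxN serum, whose autoantibodies cause arthritis. Each day had 1 library, and the number and age of the mice in it are not given in the labels used here. Days are therefore compared without replicates and without a test. All intervals have a 95% level and cover counting error alone.

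Interferon gamma is made mainly by T and NK cells. It signals through the receptor chains Ifngr1 and Ifngr2 and the kinases Jak1 and Jak2 to transcription factors that bind a DNA element called GAS, and through Irf1 and related factors, which bind an element called ISRE. CXCL9 and CXCL10 attract activated T cells and NK cells that bear the receptor CXCR3, and CCL5 attracts T cells and monocytes. Gbp2 encodes a large GTPase of cell-intrinsic defence, and Serpina3g an intracellular inhibitor of cathepsins. Type I interferons raise several of the same genes, Cxcl10 among them, and NK and T cells express Ccl5 themselves.

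The promoters of 4 members are shown because these genes were found in the same cells. Each is the 250 bases before the RefSeq start site (build GRCm38.p6, the assembly of mm10), 5′ to 3′ on the gene's strand, with matches to the core of GAS (TTCNNNGAA) or of ISRE (GAAA and GAAA with 2 bases between them) in capitals. Both strands were searched.
Cxcl9, chr5:92328080-92328329, minus strand: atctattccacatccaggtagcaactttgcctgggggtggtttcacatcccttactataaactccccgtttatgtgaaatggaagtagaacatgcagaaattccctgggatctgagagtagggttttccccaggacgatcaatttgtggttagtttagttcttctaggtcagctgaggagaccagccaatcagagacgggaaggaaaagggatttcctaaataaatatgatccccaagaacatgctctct
Cxcl10, chr5:92348890-92349139, minus strand: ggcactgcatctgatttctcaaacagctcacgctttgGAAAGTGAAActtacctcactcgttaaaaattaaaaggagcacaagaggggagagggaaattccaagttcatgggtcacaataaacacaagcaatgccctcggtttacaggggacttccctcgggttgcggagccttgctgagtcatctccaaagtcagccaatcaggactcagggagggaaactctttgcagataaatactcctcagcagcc
Gbp2, chr3:142620413-142620662, plus strand: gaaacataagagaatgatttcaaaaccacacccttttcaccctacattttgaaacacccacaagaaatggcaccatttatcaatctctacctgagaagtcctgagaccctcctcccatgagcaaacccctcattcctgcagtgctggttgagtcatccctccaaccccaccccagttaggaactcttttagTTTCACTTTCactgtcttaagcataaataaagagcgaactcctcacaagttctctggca
Serpina3g, chr12:104235897-104236146, plus strand: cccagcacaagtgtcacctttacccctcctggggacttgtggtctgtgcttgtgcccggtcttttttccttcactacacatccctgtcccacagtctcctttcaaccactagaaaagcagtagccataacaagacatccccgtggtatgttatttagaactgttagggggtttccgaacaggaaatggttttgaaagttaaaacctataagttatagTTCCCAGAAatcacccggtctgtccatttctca
Cxcl10 held 1 ISRE core whose first base lies 213 bases before the start site, and Gbp2 held 1, read on the other strand, 59 bases before it. Serpina3g held 1 GAS core, 33 bases before the start site. The window of Cxcl9 held neither set of letters. Of 32851 promoters of this length, 7.02% held a GAS core and 2.98% an ISRE core. No match overlapped another, and a match is a run of letters, not evidence of binding. Cxcl9 and Cxcl10 lie near each other on chromosome 5, at 92321331 to 92328079 and 92346638 to 92348889. Gbp2 lies on chromosome 3 (142620663 to 142638008), Serpina3g on chromosome 12 (104236147 to 104241939) and Ccl5 on chromosome 11 (83525778 to 83530518).

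A barcode is called a cell below when it held 500 or more genes and less than 10% of its UMIs were mitochondrial. They numbered 3715, 4642, 2722 and 3235 at days 0, 1, 2 and 5. The day 0 library was the shallow one, with a median of 1057 UMIs per cell against 3607.5, 4183.5 and 3897, and lost 50.7% of its barcodes to these limits, against 0.685%, 1.23% and 0.919%. To compare shares of cells, each cell was also thinned to 500 UMIs, which left out none. Pairs of libraries shared 10 to 22 cell barcodes. Of the cells with 2 or more members, 1 of the 5 at day 1 shared its barcode with another library and none at days 0, 2 and 5 did. Fewer expressing cells and less RNA per cell cannot be told apart in summed levels.

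Cxcl9, an attractant of CXCR3-bearing T cells, was listed at day 0 alone. There it had 52 UMIs, a summed level of 11.96 CPM (UMIs scaled to the same total in each group; interval 8.93 to 15.7), in 27 of 3715 cells (0.727%). Of those UMIs, 24 came from 4 cells, with at most 7 in 1 cell, so much of its level came from few cells that each held several copies. In the 96 day 0 cells with at least 1000 genes it stood at 100.2 CPM.

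Cxcl10, which uses the same receptor, stood at 16.6, 2.99, 4.19 and 12.8 CPM at days 0, 1, 2 and 5. It was high at days 0 and 5 and low between them. Against day 0 it was 5.53-fold lower at day 1 (3.84 to 8.01) and 3.95-fold lower at day 2 (2.72 to 5.77), and 1.29-fold lower at day 5, where the interval of 0.971 to 1.703 includes no difference. With cells of at least 1000 genes, of which day 0 had 96, its day 0 level was 30.8 CPM and its day 5 level 12.4 CPM, past 2-fold. Its cells also differed: at day 0 the 58 Cxcl10 cells held at most 3 UMIs each, while at day 5, in deeper cells, 13 of 63 held more than 3 and together had 127 of the 191 UMIs.

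Ccl5, an attractant of T cells and monocytes, stood at 28.5, 1.42, 9.38 and 8.32 CPM. Day 0 was the highest and day 1 the lowest, 20.2-fold below day 0 (13.1 to 32.1). The values of days 2 and 5 rested on single cells: 1 cell held 62 of 114 UMIs at day 2 (54.4%) and 1 cell held 66 of 124 at day 5 (53.2%). At day 2, 2 cells with the dendritic cell gene Fscn1 held 105 of the 114. At day 5 the leading Ccl5 cell also held Klrd1, a gene of NK cells, and Cd209a, a gene of dendritic cells. At day 0 no cell held more than 8 UMIs of Ccl5, and 2 of the first 3 cells also held Nkg7 and Gzma, genes of cytotoxic lymphocytes.

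Gbp2 stood at 24.6, 9.85, 9.79 and 10.7 CPM, 2.50-fold lower than day 0 at day 1 (1.95 to 3.19), 2.52-fold at day 2 (1.92 to 3.29) and 2.29-fold at day 5 (1.78 to 2.95). The 3 later days lie within each other's intervals. Its share of cells went the other way before depth was made equal: 2.45% at day 0 against 3.53%, 3.97% and 3.93%, but 1.18% against 0.452%, 0.404% and 0.680% in thinned cells. No order is read from the unthinned share. Serpina3g was the least abundant member, with 21 UMIs in 15 cells at day 0 (4.83 CPM, 2.99 to 7.38) and 16 UMIs in 14 cells at day 5 (1.07 CPM, 0.614 to 1.74), 4.499-fold lower (2.24 to 9.22). With cells of at least 1000 genes its day 0 level was 19.3 CPM and its day 5 level 1.10 CPM.

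At least 2-fold below day 0 were 3 of 3 listed members at day 1, 3 of 3 at day 2 and 3 of 4 at day 5. Genes listed on both days and at 10 CPM or more on either counted as measured. Of these, 2.41%, 2.98% and 3.34% were at least 2-fold lower on those days. Serpina3g did not reach 10 CPM, so the like count at day 5 is 2 of 3 measured members, Ccl5 and Gbp2. The members were chosen with these levels known, and the 3 comparisons share the day 0 library. With cells of at least 1000 genes, 96 of them at day 0, the 3 members listed every day stood at 100.2 CPM in sum at day 0, against 69.7 CPM in all its cells.

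**Figure D1:**
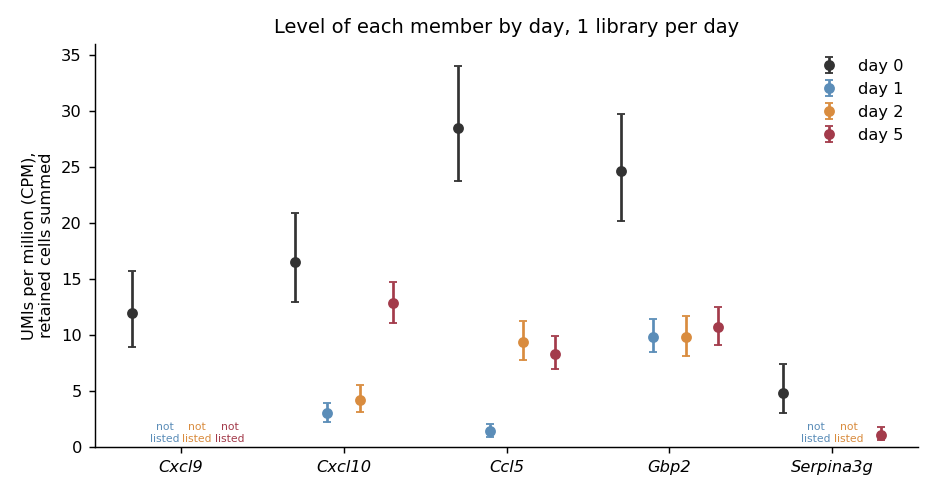
Summed level of each member in CPM in the 1 library of each day, with 95% Poisson intervals; "not listed" marks days whose file does not list the gene. Day 0 is highest for Cxcl10, Ccl5, Gbp2 and Serpina3g, and Cxcl10 at day 5 (12.8 CPM) overlaps its day 0 interval.

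The day 0 library also held 3760 barcodes with under 500 genes. No day 0 barcode held fewer than 399 genes, so these are shallower barcodes and do not measure RNA outside cells. In the 3760, Serpina3g stood at 0.745 CPM, Cxcl9 at 5.58, Gbp2 at 12.3 and Cxcl10 at 13.03, all below the retained cells. The intervals overlap those of the retained cells for Cxcl10 (9.08 to 18.1 against 12.96 to 20.9) and Cxcl9 (3.125 to 9.21 against 8.93 to 15.7). Ccl5 stood at 34.6 CPM (27.9 to 42.4), against 28.5 CPM (23.7 to 34.0) in the retained cells, and these intervals overlap too. In day 0 cells with markers of osteoclasts, the bone-resorbing cells (146 cells, median 1071 UMIs), 1 held Cxcl9 (0.685%), 1 held Ccl5 (0.685%) and 2 held Gbp2 (1.37%). None of them held Cxcl10, which allows a share of up to 2.495%. In proliferating-like cells (201 cells, median 1068 UMIs) Ccl5 was found in 9 (4.48%), the highest share of any class or cluster, so its share elsewhere at day 0 is not read as expression particular to a cell type. The part of free RNA in these levels was not tested.

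Cells that held members together were most frequent at day 0. At least 2 members were found in 41 of 3715 cells (1.10%, interval 0.793 to 1.49%), in 5 of 4642 at day 1 (0.108%), in 2 of 2722 at day 2 (0.0735%) and in 13 of 3235 at day 5 (0.402%, 0.214 to 0.686%). The deeper libraries thus had fewer such cells. In thinned cells the numbers were 15, 0, 1 and 2, with an upper limit of 0.0794% at day 1. With the 3 members listed on every day (Cxcl10, Ccl5 and Gbp2) they were 23, 5, 2 and 8, and 9, 0, 1 and 2 in thinned cells. Leaving Ccl5 out gave 26 cells at day 0 (0.6999%), and leaving out cells with a UMI of any NK or T cell marker gave 38. Among the 96 day 0 cells with at least 1000 genes, 6 held 2 or more (6.25%), a higher share in deeper cells.

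**Figure D2:**
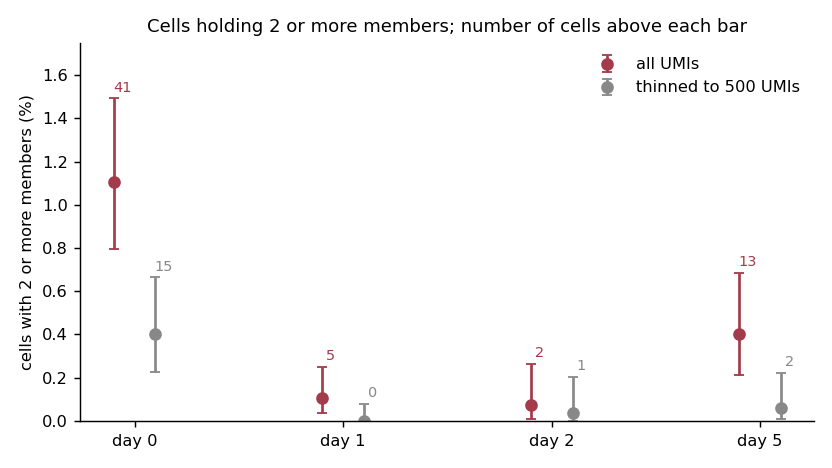
Percent of cells with UMIs of 2 or more members on each day, with all UMIs and after thinning each cell to 500 UMIs; bars are 95% Clopper-Pearson intervals and the numbers above them count cells. With all UMIs, day 0 has 41 cells and days 1, 2 and 5 have 5, 2 and 13.

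Day 0, the only day with all 5 members listed, also had the cells with most members. Of the 41 cells, 29 held 2 members, 7 held 3, 4 held 4 and 1 held all 5. At least 3 were found in 12 cells at day 0, 1 at day 1, 1 at day 2 and none at day 5, which allows a share of up to 0.114%. Days 1 and 2 had only 3 listed members, so no cell there could hold more. All 3 members listed on every day were found in 3 cells at day 0 (0.0808%, 0.0167 to 0.236%). The numbers were 1 at day 1, 1 at day 2 and none at day 5. In thinned cells no cell of any day held all 3. The 41 cells had a median of 1200 UMIs against 1056 in the others, and the 12 cells a median of 1616.

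Of the 27 Cxcl9 cells at day 0, 16 held Gbp2 (59.3%, 38.8 to 77.6%) against 2.03% of cells without Cxcl9. Cxcl10 was in 10 (37.0%, 19.4 to 57.6%) against 1.30%. Serpina3g was in 7 (25.9%, 11.1 to 46.3%) against 0.217%, and Ccl5 in 5 (18.5%, 6.30 to 38.1%) against 1.82%. Serpina3g cells were few, but 7 of 15 held Cxcl9, 7 held Gbp2, 6 held Ccl5 and 4 held Cxcl10. Cxcl10 and Ccl5 were found together in 4 cells: 6.90% of Cxcl10 cells held Ccl5 (1.91 to 16.7%) against 1.86% of the rest. At day 5 none of the 63 Cxcl10 cells held Ccl5 (upper limit 5.69%), against 0.662% of the rest. With 21 Ccl5 cells in all, these are too few to read. There 6 cells held Cxcl10 with Gbp2, 2 Cxcl10 with Serpina3g, 2 Ccl5 with Gbp2, 2 Ccl5 with Serpina3g and 1 Gbp2 with Serpina3g. These pairs were counted with all UMIs. In thinned day 0 cells 14 held Cxcl9, and 1 of them held Gbp2 (7.14%, 0.181 to 33.9%) against 1.16%. Cxcl10 was in 2 of the 14 (14.3%, 1.78 to 42.8%) against 0.703%, and Serpina3g and Ccl5 in none. None of 28 thinned Cxcl10 cells held Gbp2. Of 49 thinned Ccl5 cells 7 held Gbp2 (14.3%, 5.94 to 27.2%) against 1.01%.

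**Figure D3:**
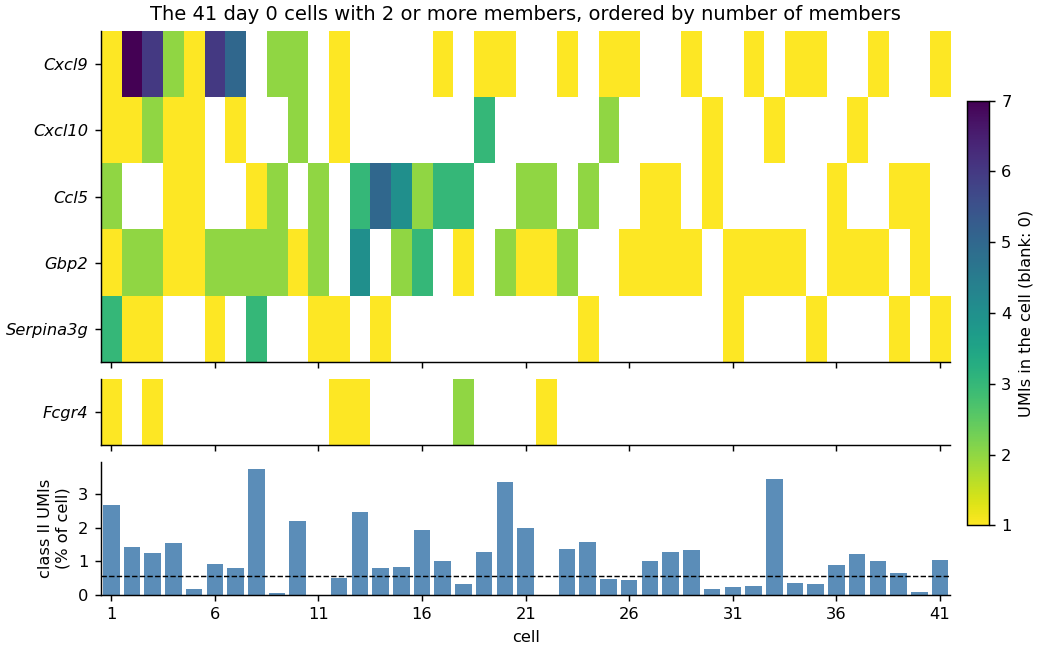
UMIs of the 5 members and of Fcgr4 in each of the 41 day 0 cells with 2 or more members (color, blank for 0), and the percent of each cell's UMIs from MHC class II genes (bars; dashed line, median of the other cells, 0.566%). Cxcl9 reaches 7 UMIs in a cell with 4 members, and Fcgr4 is present in 6 of the 41 cells.

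MHC class II genes, which encode the proteins that present antigen to T cells and which interferon gamma raises through Ciita, differed as a sum by less than the counting error in these day 0 cells. The list summed to 11441 CPM in the 41 cells and 11773.8 CPM in the others, a ratio of 0.972 (0.898 to 1.05). None of the 6 class II genes that reached 10 CPM was 2-fold higher or lower. H2-Aa, an alpha chain, had a ratio of 1.15 (0.958 to 1.37), H2-Ab1, a beta chain, 0.820 (0.662 to 1.01), H2-Eb1 0.982 (0.766 to 1.24) and Cd74, the invariant chain, 0.957 (0.856 to 1.07). The peptide loaders H2-DMa and H2-DMb1 had ratios of 1.23 (0.698 to 2.00) and 0.907 (0.390 to 1.80). Ciita, H2-DMb2 and H2-Ob had no UMI in the 41 cells, where 1 UMI is worth 17.5 CPM, and 22, 30 and 22 UMIs in the others.

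Cell by cell the 41 were in the middle of the range. Class II made up from 0 to 3.75% of a cell's UMIs, with a median of 0.999% against 0.566% in the others. Above the upper quartile of the others (1.64%) lay 8 cells, and 5 lay below the lower quartile (0.166%). When the day 0 cells were split into 4 equal ranges of class II share, the numbers with 2 or more members were 5, 9, 19 and 8 from the lowest range to the highest, out of 928 or 929 each. The third range, with a median class II share of 0.991%, held 2.05% (1.24 to 3.18%) against 0.862% (0.373 to 1.69%) in the top range. Cxcl9 had 36 of its 52 UMIs in the third range and 6 in the top one.

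At day 5 summed class II was higher in the 13 cells than in the others, with much of it from a few cells. The list summed to 44447 CPM against 17213.5 CPM, a ratio of 2.58 (2.49 to 2.68). H2-Aa had a ratio of 3.03 (2.77 to 3.31), H2-Eb1 2.94 (2.63 to 3.29), H2-Ab1 2.49 (2.28 to 2.72), Cd74 2.42 (2.29 to 2.56) and H2-DMb2 7.49 (3.84 to 13.2), while H2-DMa was at 1.82 (1.29 to 2.49). The cells were mixed: 7 lay above the upper quartile of the others and class II ranged from 0 to 11.4% of UMIs. Cells with 633, 599, 507 and 490 class II UMIs led the sum, while several others held 9 or fewer. The intervals of these ratios count UMIs and do not cover this spread between cells. The cell with most class II (11.4%) held 22 UMIs of Cxcl10 and 11 of dendritic cell markers. A cell with 9.21% class II held 66 UMIs of Ccl5 and 13 of dendritic cell markers, and one with 10.7% held 11 and 46. A cell low in class II (0.0991%) held 57 UMIs of monocyte markers. With Ccl5 left out of the members the ratio was 1.95 (9 cells), and with Gbp2 left out it was 4.64 (4 cells). In thinned cells only 2 such cells were left, with a ratio of 1.18 (0.721 to 1.82). The day 0 and day 5 ratios come from 1 library each, and their difference was not tested. The few cells of the other days were mixed too: class II was 0.573%, 1.54%, 8.45%, 2.78% and 3.38% of UMIs in the 5 cells of day 1, and 14.3% and 0.0514% in the 2 of day 2.

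**Figure D4:**
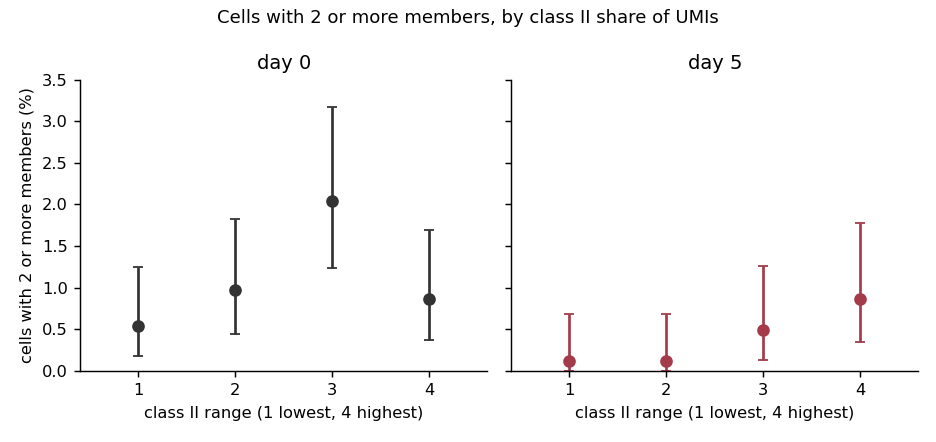
Percent of cells with 2 or more members in 4 equal ranges of class II share, at day 0 and day 5, with 95% Clopper-Pearson intervals. At day 0 the third range is highest (19 of 929 cells), and at day 5 the counts from lowest to highest range are 1, 1, 4 and 7.

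Fcgr4 encodes an activating receptor for IgG antibodies that works with the common signalling chain Fcer1g. Over all cells it stood at 7.59, 6.10, 6.42 and 13.96 CPM at days 0, 1, 2 and 5. In the 41 day 0 cells it had 7 UMIs, in 6 cells, 122.8 CPM against 6.06 CPM in the others, a ratio of 20.3 (7.43 to 47.95). Read from the other side, 6 of the 31 day 0 cells with Fcgr4 held 2 or more members (19.4%, 7.45 to 37.5%) against 35 of 3684 cells without it (0.9501%, 0.663 to 1.32%). Each member was also more frequent in the Fcgr4 cells: Gbp2 in 7 of 31 (22.6% against 2.28%), Cxcl9 in 4 (12.9% against 0.624%), Ccl5 in 4 (12.9% against 1.85%), and Cxcl10 and Serpina3g in 3 each (9.68% against 1.49% and 0.326%). In thinned cells Fcgr4 was left in 8 cells, 1 of them with 2 or more members. Of the 12 cells with 3 or more members, 3 held Fcgr4.

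The other Fc gamma receptor genes lay closer to the other cells. At day 0 the high-affinity receptor gene Fcgr1 had 8 UMIs in the 41 cells, a ratio of 2.74 (1.17 to 5.49). Fcgr3 had a ratio of 1.38 (0.988 to 1.86), the inhibitory receptor gene Fcgr2b 1.29 (0.817 to 1.95) and Fcer1g 0.897 (0.754 to 1.06). At day 5 Fcgr4 had 5 UMIs in 3 of the 13 cells, 3 of them in 1 cell, 82.9 CPM against 13.7 CPM (ratio 6.06, 1.95 to 14.4). Fcgr1 had a ratio of 2.53 (1.64 to 3.75) and Fcgr2b 1.52 (1.06 to 2.11) there. Fcgr4 was not found in the 5 cells of day 1 or the 2 of day 2, too few to read.

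Genes known to be induced by interferon gamma, other than the members and class II, stood above the other cells at day 0. Of the list's 27 genes 19 were listed, and they summed to 86 UMIs, 1509.1 CPM against 425.8 CPM, a ratio of 3.54 (2.82 to 4.40). Gbp3, a relative of Gbp2, had 6 UMIs in 6 cells (ratio 8.69, 3.05 to 20.2), the immunity-related GTPase Irgm1 4 UMIs (8.60, 2.22 to 24.1) and the interleukin-18 inhibitor Il18bp 2 UMIs (15.1, 1.60 to 70.7). Of 14 genes with at least 10 CPM in the 41 cells or in the others, 13 were 2-fold higher, against 19.0% of all measured genes higher and 23.4% lower. A gene with 1 UMI in the 41 cells passes that limit, so the count is not read. Of the 7 that reached 10 CPM in the other cells, 6 were at least 2-fold higher, against 9.54% of all genes so measured, and their median log2 ratio, with 20 CPM added, was 1.02 against -0.06 over those genes.

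The type I interferon list summed to 2.12-fold (1.58 to 2.78), with 53 UMIs. Isg15, a ubiquitin-like modifier, led it with 13 UMIs in 8 cells (19.97, 9.94 to 37.4). The other 3 named genes had 1 or 2 UMIs each: Oasl1 2 in 1 cell (25.1, 2.48 to 140.3), Mx1 1 (10.8, 0.239 to 83.7) and Cmpk2 1 (6.84, 0.159 to 47.1). Of the 5 genes of the list that reached 10 CPM in the other cells 2 were at least 2-fold higher, against the same 9.54%. Class I and antigen processing genes summed to 1.35-fold (1.23 to 1.48), and 6 of the 13 that reached 10 CPM in the other cells were at least 2-fold higher, against 9.54%. Tap2, a subunit of the peptide transporter, had a ratio of 3.89 (1.91 to 7.10), Tap1, its partner, 3.07 (0.821 to 8.12), H2-T22 3.05 (1.21 to 6.41) and H2-T23 2.07 (0.664 to 4.92).

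Inflammatory mediators driven by NF-kB summed to 1.74-fold (1.55 to 1.96) in the 41 cells. Cxcl2, a neutrophil attractant, had 137 UMIs in 27 of the cells (ratio 2.80, 2.35 to 3.32), Relb, an NF-kB subunit, 3.45 (1.24 to 7.71), Tnf 2.06 (1.23 to 3.24) and the chemokine gene Ccl3 1.699 (1.21 to 2.32). Of the 41 cells, 20 lay in 1 day 0 cluster whose leading genes include Tnf and Cxcl2, described below. The Tnf ratio was 1.13 (0.639 to 1.87) within that cluster and 1.04 (0.214 to 3.06) outside it. That of Cxcl2 was 1.41 (1.13 to 1.74) within it and 2.72 (1.98 to 3.65) outside. Of the 11 genes of the NF-kB list that reached 10 CPM in the other cells 3 were at least 2-fold higher and 2 lower. The shares of all genes so measured were 9.54% higher and 26.5% lower. Immediate early genes, the first genes a stimulated cell transcribes, summed to 1.06-fold (0.958 to 1.16), with none of 13 so measured at least 2-fold higher and 2 lower, against the same shares. Among them Dusp1 had a ratio of 1.31 (1.01 to 1.67), Jun 1.24 (0.8996 to 1.67), Hspa1a 1.17 (0.893 to 1.51) and Ier2 1.13 (0.737 to 1.66). Receptor and signalling genes summed to 1.14-fold (0.835 to 1.52), with Il15 at 2.60 (0.525 to 7.84), Ifnar1 at 1.93 (0.520 to 5.04) and Jak2 at 1.93 (0.0477 to 11.4). Ifng itself was listed on none of the 4 days.

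At day 5 the same lists were summed in the 13 cells; whether their ratios differ from day 0 was not tested. The interferon gamma list was 4.46-fold higher in the 13 cells (3.63 to 5.43), and 9 of its 10 genes measured in the other cells were at least 2-fold higher, against 10.9% of all genes so measured. Among genes measured in either group, 19.7% were at least 2-fold higher. Type I interferon genes were 3.86-fold higher (3.51 to 4.24), NF-kB mediators 1.88-fold (1.72 to 2.05), class I genes 1.58-fold (1.46 to 1.699) and immediate early genes 2.15-fold (2.01 to 2.29). The 13 cells also held less of the lining macrophage markers, 331.6 CPM against 2408 CPM, and more of the monocyte markers, 2768.6 CPM against 1288.6 CPM. Cells with 57, 35, 25, 22 and 14 monocyte marker UMIs led that sum, and the others held 5 or fewer each. Of the 13, 4 lay in a day 5 cluster of 124 cells without a class name (3.23%, 0.886 to 8.05%). Its leading genes include Klrd1, Cd209a, Ccr7 and Fscn1. Arg1-like cells held 3 of 450 (0.667%), monocyte-like cells 2 of 495 (0.404%) and lining-like cells none of 707.

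**Figure D5:**
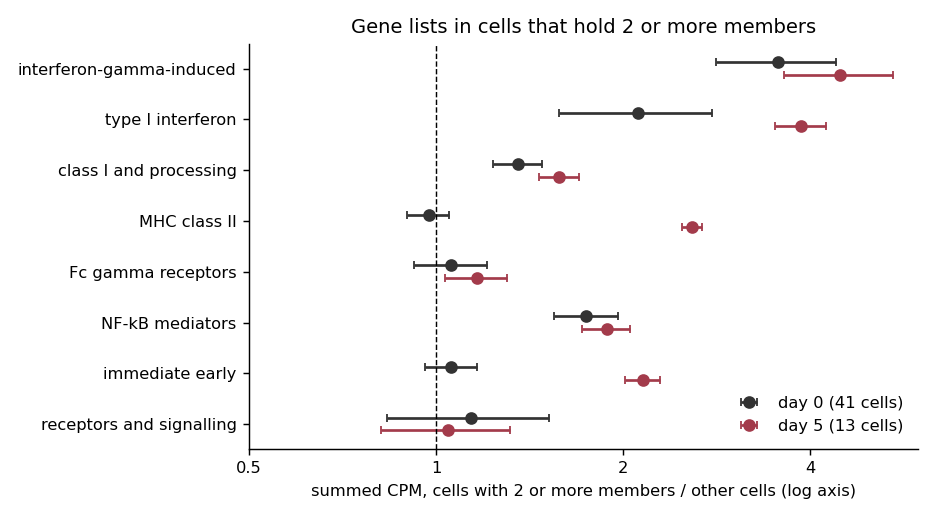
Ratio of the summed CPM of each gene list in cells with 2 or more members to that in the other cells (log axis), at day 0 and day 5, with 95% intervals for counting error; the dashed line marks equal levels. The interferon gamma list is highest on both days (3.54 and 4.46), and class II is near 1 at day 0 and at 2.58 at day 5.

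Outside the lists, 11 genes with at least 20 UMIs in the 41 day 0 cells were at least 2-fold higher. How many genes reached 20 UMIs there is not given, so the number 11 is not read as many or few. The monocyte attractant Ccl12 led them, with 38 UMIs in 15 cells (ratio 6.37, 4.45 to 8.88), and had a ratio of 5.74 (2.46 to 11.4) at day 5. The survival gene Bcl2a1b followed (3.41, 2.33 to 4.84), then the transcriptional regulator Id2 (2.84, 1.98 to 3.97) and the surface glycoprotein gene Cd52 (2.52, 1.83 to 3.39). The others were Zyx, Sdc4, Npm1, Pim1, Cxcl16, Tmsb10 and Prdx5, with ratios of 2.02 to 2.63. Id2, Cd52 and Cxcl16 were at least 2-fold higher at day 5 too. The rest were not: Pim1 had a day 5 ratio of 1.74, Tmsb10 1.33, Bcl2a1b 1.05 (0.542 to 1.84), Prdx5 1.05 and Zyx 1.01. Below 1 at day 5 were Npm1, at 0.644 (0.413 to 0.959), and Sdc4, at 0.612 (0.126 to 1.79). The ratios to the other day 0 cells are the measure of likeness to the members, over 3715 cells of 1 library.

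Genes low in the 41 cells named other macrophage states. Cxcl13, a B cell attractant, had 3 UMIs and was 6.11-fold lower, and the lectin gene Cd209d had 1 UMI and was 8.49-fold lower (ratio 0.118, 0.00298 to 0.659). The chemokine gene Ccl17 and the osteoclast gene Mmp9 had no UMI, at least 2.91-fold and at least 2.04-fold lower with 3 counts over the group in place of 0. Ggnbp2, Sugt1 and Sf3b4 also had none, against 69.7 to 81.3 CPM in the other cells.

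Clustering the day 0 library alone, with the members and the interferon, class I, class II and Fc receptor lists left out of the variable genes, placed 20 of the 41 cells in 1 of 11 clusters. It held 472 cells (12.7%), took no class name, and was led by Ccrl2, Clec4e, Tnf, Cxcl2, Tnfsf9 and Il1b. Its share with 2 or more members was 4.24% (2.61 to 6.47%), and its median depth was 1222.5 UMIs. MHC class II-high-like cells held 4 of 307 (1.30%), lining-like cells 4 of 452 (0.885%), osteoclast-like cells 1 of 146 (0.685%), proliferating-like cells 1 of 201 (0.498%) and the cluster led by Ccl8 and Ccl7 2 of 670 (0.299%). At a finer clustering (resolution 2.0) the largest number in 1 cluster was 7, so the placement depended on the resolution. Ratios were taken within and outside that cluster. Within it, the 20 cells had 50 UMIs of the interferon gamma list, 2.66-fold above the other 452 (1.94 to 3.59), and 6 of Fcgr4 against 5 (ratio 23.5, 5.97 to 97.2). Their type I ratio was 2.90 (2.01 to 4.09), their class II ratio 0.872 (0.781 to 0.971) and that of NF-kB mediators 0.969 (0.836 to 1.12). Ccl12 was 14.3-fold higher (7.88 to 25.7) and Isg15 16.5-fold (6.71 to 40.0) there. Outside it, the 21 cells had ratios of 3.58 (2.50 to 4.98) for the interferon gamma list, 1.34 (0.746 to 2.21) for the type I list, 1.595 (1.29 to 1.95) for NF-kB mediators, 1.04 (0.923 to 1.16) for class II and 6.92 (0.167 to 43.0) for Fcgr4, the last from 1 UMI.

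Markers of NK and T cells were present in a few of the cells. The 41 day 0 cells had 16 UMIs of 9 listed markers, in 3 cells with up to 9 each, 280.8 CPM against 33.8 CPM, and 3 of the 9 had none. Without cells that held any such marker, 38 cells were left, as given above, so most cells with 2 or more members had none of these markers. Dendritic cell markers stood at 263.2 CPM against 355.9, monocyte markers at 140.4 against 116.3, lining markers at 3351.6 against 3590.2 and osteoclast markers at 298.3 against 966.8. Fibroblast markers had no UMI in the 41 cells. At day 5, 3 of the 13 cells held the 17 NK or T UMIs, 13 of them in 1 cell.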

How the data were processed

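Per the labels, 17400 cells were loaded per sample for droplet UMI sequencing. The authors deposited raw UMI counts per gene and barcode. The submitters' processing notes name Seurat 2.3, R 3.5.2, Cell Ranger 2.1.0 and the mm10 build without saying what each did. Members, lists and tests were chosen with earlier results of these data known.

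Counts were summed over cells and scaled to CPM. Shares carry Clopper-Pearson intervals, levels Poisson intervals and ratios exact conditional Poisson intervals, all at 95% and for counting error only; PCR duplicates are removed by the UMIs. In ratios 3 counts replaced a 0. Cells with UMIs of 2 or more members were compared with the other cells of their library. Doublets were not called; leaving out the 5% of cells with most UMIs stands in.

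Each library was clustered alone (2000 variable genes, 30 components, 15 neighbours, Leiden at resolution 1.0). A name needed 3 raised markers of a class, and the erythroid name was dropped after the data were seen, since haemoglobin RNA led clusters with other leading genes. Named genes were the members, the class II and Fc receptor lists, up to 4 genes of each other list by day 0 ratio, and the first 15 higher (at least 20 UMIs) and 8 lower (at least 50 CPM in the others) outside the lists by log2 ratio with 20 CPM added, without mitochondrial, ribosomal, haemoglobin, sex-linked and predicted genes. A few genes that the rule names are left out of the text. Motifs and positions were matched by symbol to RefSeq tables of GRCm38.p6; 4 of 5 members matched a promoter. Ratios were checked on simulated Poisson counts, which have no spread between cells, so the check does not cover that spread. Tools were scanpy 1.11.5, leidenalg 0.10.2, igraph 0.11.9, pandas 2.3.3, SciPy 1.17.1, NumPy 2.4.6, matplotlib 3.10.9 and Python 3.11.15.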

Additional observations from a re-analysis of the deposited data

How the results depend on the processing

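With cells of at least 1000 genes, the 3 members listed every day summed to 100.2 CPM at day 0, and 6 of 96 cells (6.25%) held 2 or more members; without cells holding an NK or T marker the sum at day 5 was 26.3 CPM. Members at least 2-fold below day 0 numbered 3 at days 1 and 2 under all 4 alternatives. At day 5 they numbered 4 with cells of at least 1000 genes, where Cxcl10 passed too, and 3 under the others. The main count used no limit on low values, so the alternative without that limit repeats it by construction and adds nothing. Median-ratio scaling moved the median gene by -0.13, -0.12 and -0.09 (log2). At day 0 the share with 2 or more members was 0.404% in thinned cells, 0.6999% without Ccl5, 0.565% without Gbp2 and 0.619% with the members listed on every day, and 0.323% held 3 or more. At day 1 it was 0% in thinned cells and 0.0215% with 3 or more members or without Gbp2. At day 5 it was 0.0618% in thinned cells, 0% with 3 or more members and 0.124% without Gbp2. Without the 5% of cells with most UMIs, which stands in for doublets, 33, 4, 2 and 12 cells were left. The day 0 class II ratio was 1.08 without those cells, 1.07 with 3 or more members, 1.05 without Ccl5 and 0.872 within the cluster with most such cells. At day 5 it was 1.18 in thinned cells (2 cells; interval 0.721 to 1.82), 2.71 with at least 1000 genes, 2.85 without NK or T markers, 2.90 without the cells with most UMIs, 1.95 without Ccl5, 4.64 without Gbp2 and 2.42 as the mean of each cell's CPM. The day 0 Fcgr4 ratio was 6.92 outside that cluster and could not be given with at least 1000 genes, where both counts were 3 or fewer. The 18 other values for Fcgr4 lay within the main interval of their day. Those intervals, 7.43 to 47.95 and 1.95 to 14.4, are wide, so this is a weak check. In thinned day 0 cells the ratio was 35.2, with an interval of 0.782 to 274.3 that includes 1. At day 5 the intervals without Ccl5 (3.45, 0.415 to 12.6) and without Gbp2 (3.29, 0.083 to 18.6) also include 1. At day 5 no cell held 3 members and thinned cells gave no Fcgr4 count. The interferon gamma genes at least 2-fold higher at day 0 numbered 6 with the limit set on the other cells, which tests fewer genes. At resolution 2.0 the largest number of day 0 cells in 1 cluster was 7. Causes were not tested beyond the construction of each alternative. The alternatives that used the members listed on every day, the limit set on the other cells, and the inside or outside of a cluster were chosen after seeing the data. The Fcgr4 ratios rest on 7 UMIs at day 0 and 5 at day 5. No paired analysis was possible because each day has 1 library.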
